A study of Mus musculus with 12 samples.

Results

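The 40 genes described here are the hypoxia-inducible factor (HIF) pathway and its target genes, taken by symbol from a fixed list that leaves out the glycolytic targets. Of these 40 members, 39 were listed in both deposited tables, which share 27321 genes, and Hif3a was listed in the OGD-R table only. Their RNA was measured in primary mouse brain endothelial cells (BECs), the cells that line brain vessels, from Cort+/+ mice and from Cort-/- mice, which lack the neuropeptide cortistatin. No member differed between environments or genotypes at a false discovery rate (FDR) of at most 0.05. In the fits over all libraries, the members at an unadjusted p under 0.05 were Pim1 (higher) and Egln1 and Egln3 (lower) after OGD-R, and Bhlhe41 and Angptl4 (higher) and Ppp1r3b (lower) in Cort-/- BECs, which is no larger a share than among all genes. Ppp1r3b passed the filter on low values only through Cort+/+ libraries, where it was higher.

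When oxygen is plentiful, prolyl hydroxylases (the Egln genes) mark the HIF alpha subunits for capture by the von Hippel-Lindau protein and for degradation. When oxygen is scarce, the alpha subunits persist, pair with Arnt and bind DNA at hypoxia response elements, short sites with a core of ACGTG or GCGTG. Their targets include secreted vascular peptides, mitophagy receptors, glycogen enzymes and the Egln genes themselves, and much of this control acts on the stability of the HIF proteins, which RNA levels do not show. Brain endothelium lives close to the oxygen supply and is known for high Epas1, the alpha subunit HIF-2.

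The BECs came from mice of strain C57BL/6 in the labels and C57BL/6J in the methods, 8 weeks old in the study's description of the isolation, and were enriched with puromycin. Every replicate was a pool from 3 mice. Under NX/NG (normoxia and normoglycemia, called NM in the labels) they were kept for 24 h at 21% O2 with 5.5 mM glucose. Under OGD-R (called OGD in the labels) they had 4 h of oxygen and glucose deprivation at 1% O2 without glucose or serum, followed by 20 h of reoxygenation, so RNA was taken at the end of the reoxygenation and not in hypoxia. The labels call the genotypes WT and KO, and also enter a stroke model (MCAO) as disease state for every sample, whereas the methods describe cultures. With a column in the tables were 3 Cort+/+ and 2 Cort-/- libraries under each environment, 10 of the 12 samples. The Cort-/- samples numbered 3 under NX/NG and 2 under OGD-R were not analysed here.

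Levels are given in RPKM (reads scaled to gene length and library size), which allows genes of different length to be compared, and the reads of both tables were scaled together so that environments could be compared. The libraries held 12386048 to 12390428 reads on genes. Cort reads numbered 2, 1 and 1 in wild-type NX/NG libraries, 1 in the third wild-type OGD-R library and 0 in the 6 others, which is too few to check the genotype. The share of ribosomal RNA was 7.64% to 15.8% in 8 libraries. It was only 0.0952% in the Cort-/- OGD-R library numbered 3 and 0.0776% in the Cort+/+ OGD-R library numbered 1, so results under OGD-R are also given without these libraries. Of the 8 endothelial markers, Cdh5 lay between 453 and 721 RPKM and Pecam1 between 155 and 248 RPKM, but Slco1a4, a transporter of the blood-brain barrier, reached at most 0.483 RPKM. The contractile transcripts Acta2 and Tagln were also abundant (614 to 1105 and 349 to 695 RPKM). The other smooth muscle markers Cnn1, Myh11 and Des reached at most 16.8, 2.17 and 0.378 RPKM. Markers of macrophages, astrocytes and oligodendrocytes summed to at most 4.06 RPKM in any library.

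The members spanned a wide range of levels. The mean over the 10 libraries was at least 100 RPKM for Apln (508 RPKM) and Epas1 (117 RPKM), 10 to 100 RPKM for 12 members, 1 to 10 RPKM for 22 and under 1 RPKM for Ppp1r3c, Car12 and Pygl. These last 3 and Hif3a did not pass the filter of 1 RPKM in at least 2 libraries, which left 36 members for the fits over all 10 libraries. Across those 36 members, the pooled SD within groups had a median of 0.19 on the log2 scale, against 0.16 for the 14855 genes that passed the same filter, and it was lowest for Egln1 (0.055) and highest for Apln (0.53). The map of all members by library shows this spread gene by gene. The members below the filter were listed at 0.153 to 0.629 RPKM (Ppp1r3c), 0.058 to 0.216 RPKM (Car12) and 0.035 to 0.192 RPKM (Pygl).

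**Figure D1:**
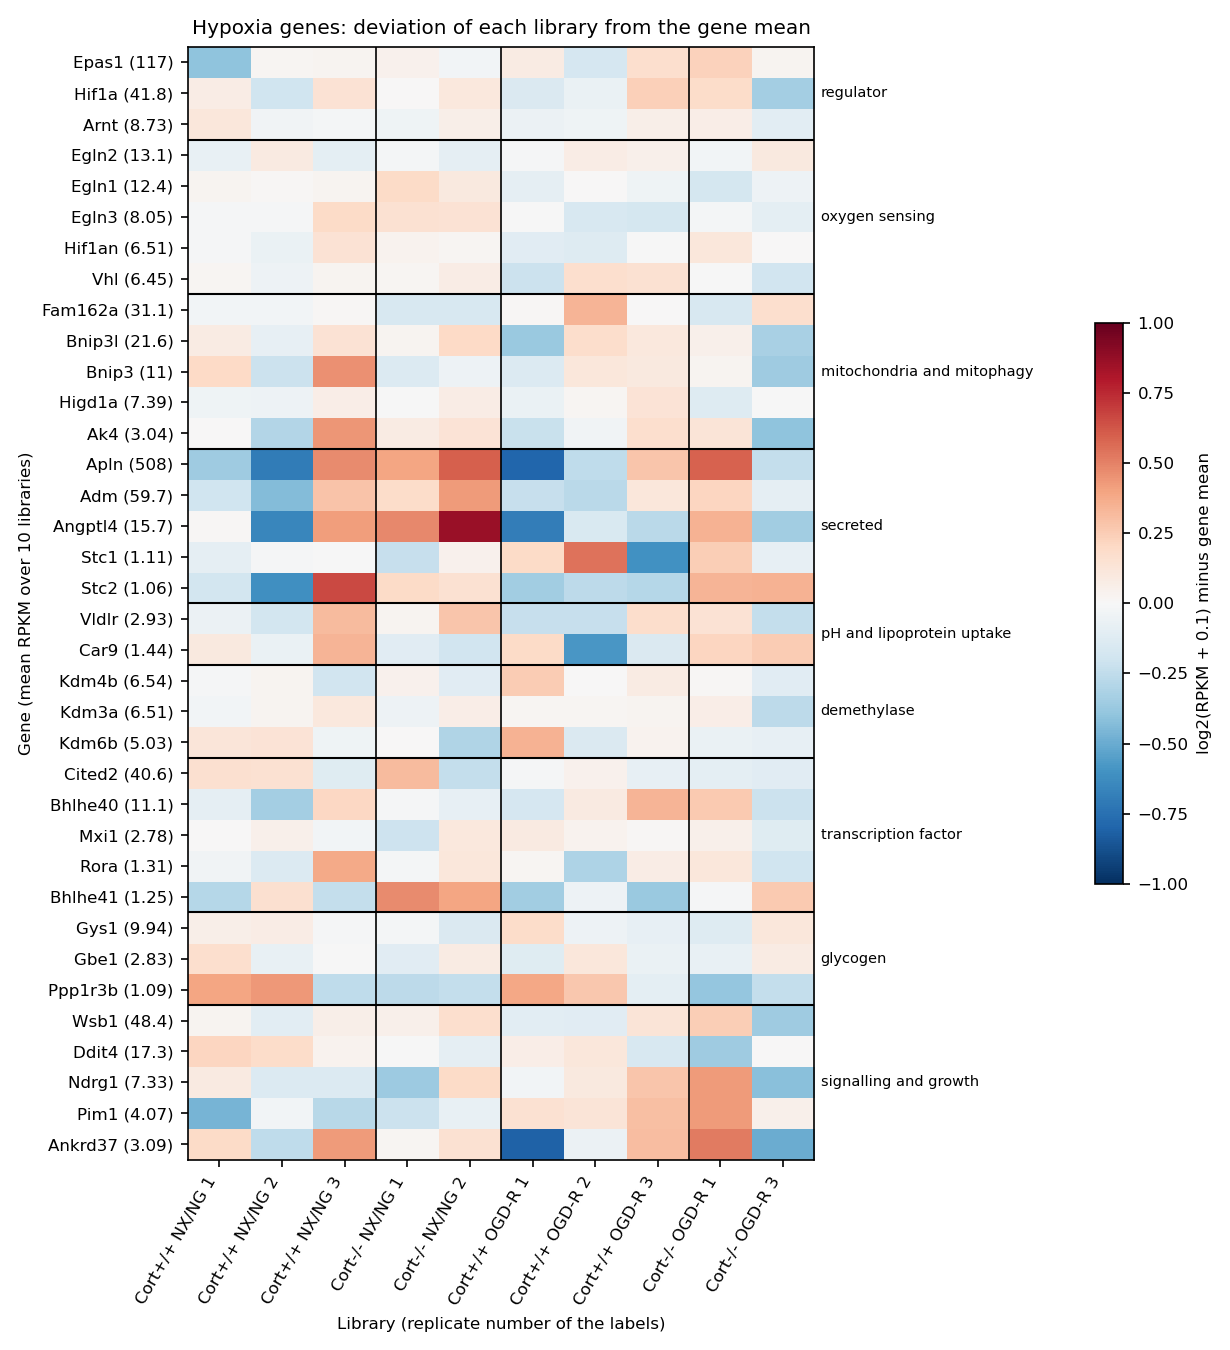
Deviation of each library (columns, by genotype, environment and replicate number) from the mean of each gene (rows, with mean RPKM, grouped by role), as log2(RPKM + 0.1), for the 36 members that passed the filter. Vertical lines separate the 4 groups. Among the strongest colours are those of Apln, Angptl4, Stc1, Stc2 and Ankrd37, which differ between replicates of the same group, whereas the regulators and the oxygen sensors are paler.

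Among the alpha subunits and their partner, the data show high Epas1, lower Hif1a and little Hif3a. Epas1 encodes HIF-2 alpha and was measured at 87.7, 118 and 118 RPKM in the Cort+/+ NX/NG libraries, 119.9 and 114 RPKM in Cort-/- NX/NG, 123, 103 and 130.4 RPKM in Cort+/+ OGD-R and 136 and 118 RPKM in Cort-/- OGD-R. Hif1a, the alpha subunit HIF-1, was at 43.7, 36.1 and 45.8 RPKM in Cort+/+ NX/NG, 41.5 and 44.6 RPKM in Cort-/- NX/NG, 37.6, 39.6 and 49.0 RPKM in Cort+/+ OGD-R and 47.2 and 32.8 RPKM in Cort-/- OGD-R. The lowest Epas1 library exceeded the highest Hif1a library, and the 4 groups overlapped for each gene, except that both Cort-/- OGD-R libraries lay just above the Cort+/+ NX/NG libraries for Epas1. Arnt, the beta subunit that both partners need, lay between 8.11 and 9.43 RPKM in the 10 libraries. Hif3a, whose products include inhibitors of the pathway, had 1, 1, 2, 1 and 2 reads in the 5 OGD-R libraries, which is below the floor of 3 reads taken as the limit of detection, and was not analysed under NX/NG. The fitted log2 fold change after OGD-R, over both genotypes, was 0.14 for Epas1 (95% CI -0.09 to 0.36), -0.05 for Hif1a (-0.31 to 0.22) and -0.03 for Arnt (-0.16 to 0.09). Between Cort-/- and Cort+/+ it was 0.11 for Epas1 (-0.12 to 0.34), -0.02 for Hif1a (-0.29 to 0.25) and -0.01 for Arnt (-0.13 to 0.12). The intervals for Arnt are the narrowest of the 3, and none of these differences exceeded the spread between replicates.

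The oxygen sensors were among the members with the least spread. Egln1 (prolyl hydroxylase PHD2, the main oxygen sensor of the pathway) was at 12.6, 12.5 and 12.6 RPKM in Cort+/+ NX/NG, 14.2 and 13.2 RPKM in Cort-/- NX/NG, 11.6, 12.4 and 12.0 RPKM in Cort+/+ OGD-R and 10.9 and 12.0 RPKM in Cort-/- OGD-R. All 5 OGD-R libraries lay below all 5 NX/NG libraries, with 12.405 RPKM as the highest of the former and 12.456 RPKM as the lowest of the latter. Egln3 (PHD3, itself a textbook HIF target) was at 7.94, 7.96 and 9.19 RPKM in Cort+/+ NX/NG, 8.91 and 8.89 RPKM in Cort-/- NX/NG, 7.995, 7.15 and 7.11 RPKM in Cort+/+ OGD-R and 7.90 and 7.48 RPKM in Cort-/- OGD-R. Its environments overlapped only through Cort+/+ libraries, since OGD-R replicate 1 (7.995 RPKM) was above NX/NG replicates 1 and 2. The log2 fold change after OGD-R over both genotypes was -0.14 for Egln1 (SE 0.054, unadjusted p = 0.028, limma FDR = 0.39) and -0.19 for Egln3 (SE 0.059, unadjusted p = 0.012, limma FDR = 0.32). Leaving out any 1 of the 10 libraries gave an unadjusted p between 0.0055 and 0.030 for Egln3 and between 0.017 and 0.082 for Egln1, which exceeded 0.05 when Cort-/- NX/NG replicate 1 or 2, Cort-/- OGD-R replicate 1 or Cort+/+ OGD-R replicate 1 was left out. Without both libraries low in ribosomal RNA, the log2 fold change was -0.14 for Egln1 (unadjusted p = 0.075) and -0.20 for Egln3 (unadjusted p = 0.014).

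The other sensors varied little. Egln2 (PHD1) lay between 12.2 and 14.03 RPKM, Vhl, the substrate receptor of the ubiquitin ligase, between 5.52 and 7.23 RPKM, and Hif1an, the asparaginyl hydroxylase that limits the transactivation of HIF, between 5.94 and 7.21 RPKM. Their log2 fold changes after OGD-R were 0.08 (95% CI -0.04 to 0.19), -0.03 (-0.23 to 0.16) and -0.05 (-0.19 to 0.08). Between genotypes they were -0.02 (-0.14 to 0.10), -0.04 (-0.24 to 0.15) and 0.07 (-0.07 to 0.21). For all 3, these intervals exclude a change of 0.5 on the log2 scale in either direction.

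The promoter sequences of the members with an unadjusted p under 0.05 in the fits over 10 libraries are shown because the HIF core motif can be read in them. They are the 250 bases before the annotated start, on the strand of the gene, from RefSeq (GRCm38.p6), and this choice was made after the values were seen. Capitals mark ACGTG or GCGTG on either strand, so that CACGTG in capitals is a pair of overlapping ACGTG matches. Angptl4 and Ppp1r3b are not shown. The build of the deposited tables is not given in the sources used here, and the tables were matched by symbol only.
Egln1, chr8:124949255-124949504, minus strand: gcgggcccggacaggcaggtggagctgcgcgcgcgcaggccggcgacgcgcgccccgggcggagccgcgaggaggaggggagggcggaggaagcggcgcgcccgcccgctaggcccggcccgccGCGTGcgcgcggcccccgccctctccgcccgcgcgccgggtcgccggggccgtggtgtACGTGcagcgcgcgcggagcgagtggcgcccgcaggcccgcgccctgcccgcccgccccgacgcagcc
Egln3, chr12:54203875-54204124, minus strand: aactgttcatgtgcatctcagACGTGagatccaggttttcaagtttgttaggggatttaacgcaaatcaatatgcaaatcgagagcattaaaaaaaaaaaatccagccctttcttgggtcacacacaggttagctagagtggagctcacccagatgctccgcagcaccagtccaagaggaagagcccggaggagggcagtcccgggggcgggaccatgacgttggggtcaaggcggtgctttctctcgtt
Pim1, the downstream of its annotated starts, chr17:29492835-29493084, plus strand: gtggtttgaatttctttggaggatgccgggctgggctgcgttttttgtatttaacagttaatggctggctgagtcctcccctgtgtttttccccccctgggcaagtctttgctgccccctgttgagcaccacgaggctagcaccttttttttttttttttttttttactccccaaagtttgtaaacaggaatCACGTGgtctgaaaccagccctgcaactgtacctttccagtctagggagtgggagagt
Bhlhe41, chr6:145865421-145865670, minus strand: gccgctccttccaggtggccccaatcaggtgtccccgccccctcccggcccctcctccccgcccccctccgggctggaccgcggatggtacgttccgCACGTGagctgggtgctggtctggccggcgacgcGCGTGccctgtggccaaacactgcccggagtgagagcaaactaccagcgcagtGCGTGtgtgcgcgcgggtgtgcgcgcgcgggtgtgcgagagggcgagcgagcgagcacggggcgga
In Egln1, ACGTG lies 68 to 64 bases before the start and GCGTG 126 to 122 bases before it. In Egln3, the ACGTG match lies 229 to 225 bases before the start. The window of the downstream Pim1 start holds CACGTG, and the window of its upstream start holds neither motif. Bhlhe41 holds CACGTG and, closer to the start, 2 matches to GCGTG. Among the 31 members with a promoter sequence, 18 (58.1%) held ACGTG and 18 (58.1%) held GCGTG in at least 1 window, against 18.5% and 30.9% of all 27025 genes with such a sequence. The member windows were also richer in G and C (mean 62.7% against 53.0%), and the part of base composition in these shares was not tested. A match is not a site of binding.

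The first comparison asks whether the transcripts differ between NX/NG and OGD-R. Over both genotypes, limma called 0 of 36 members at an FDR of at most 0.05, against 0.0606% of all genes tested. At an unadjusted p under 0.05, 1 member was higher (Pim1) and 2 were lower (Egln3 and Egln1), which is 3 of 36, against 6.31% of all genes higher and 5.38% lower. Limma-voom on the recovered reads also called 0 members (0.148% of all genes) and gave 4 of 36 at an unadjusted p under 0.05, the same 3 and Angptl4, against 12.2% of all genes in either direction. The median log2 fold change of the members was -0.05, against 0.00 for all genes tested, with 11 members above 0 and 25 below 0, and the median size was 0.10 in both. The 95% confidence interval lay within 1 on the log2 scale in either direction for 36 of 36 members and within 0.5 for 28 of them. The member counts at the FDR and at the unadjusted p are thus near the background of all genes. The share of all genes below 0 was not computed, so the count of signs has no such background.

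Pim1, a serine/threonine kinase that promotes survival, had the smallest p of the members in this comparison. It was at 2.88, 3.94 and 3.28 RPKM in Cort+/+ NX/NG, 3.44 and 3.81 RPKM in Cort-/- NX/NG, 4.47, 4.39 and 4.95 RPKM in Cort+/+ OGD-R and 5.41 and 4.16 RPKM in Cort-/- OGD-R. Every OGD-R library was above every NX/NG library, as was the case for 1.01% of all genes, while 0.956% of all genes, Egln1 among them, had every OGD-R library below. The log2 fold change was 0.42 over both genotypes (SE 0.10, unadjusted p = 0.0022, limma FDR = 0.22) and 0.45 in Cort+/+ BECs alone (SE 0.13, unadjusted p = 0.011, limma FDR = 0.72). Leaving out any 1 library gave 0.36 to 0.49 over both genotypes, and leaving out both libraries low in ribosomal RNA gave 0.50.

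**Figure D2:**
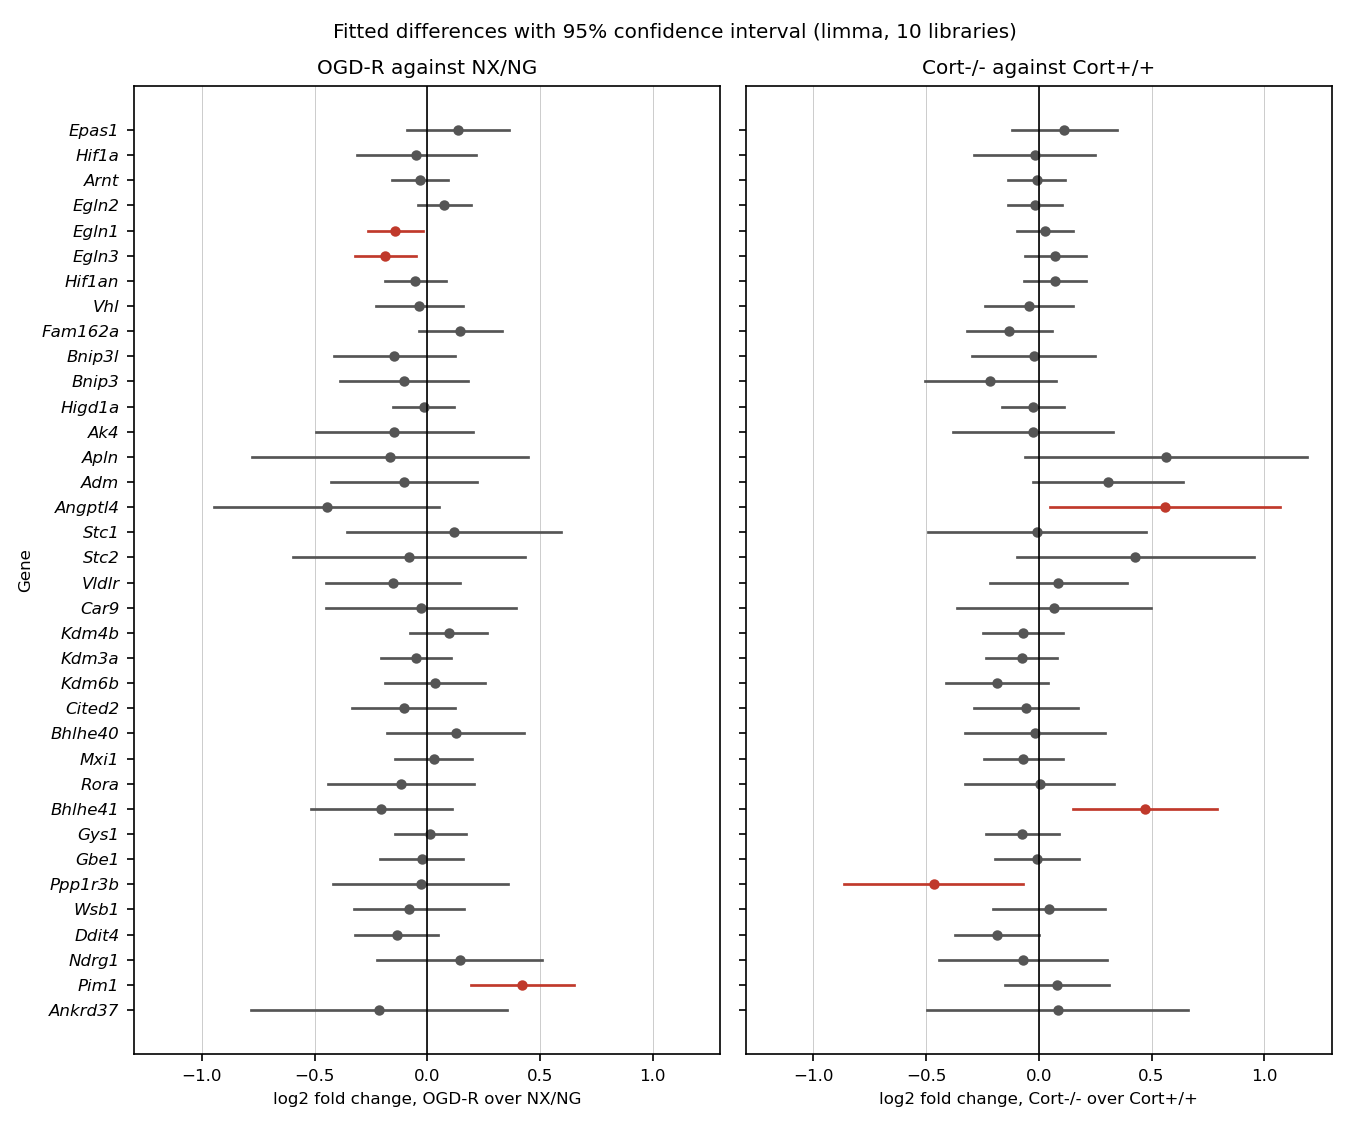
Fitted log2 fold change (points) with 95% confidence interval (lines) of each of the 36 members, for OGD-R over NX/NG (left) and Cort-/- over Cort+/+ (right), from limma over 10 libraries. Red marks an unadjusted p under 0.05 (Pim1, Egln1 and Egln3 on the left, Bhlhe41, Ppp1r3b and Angptl4 on the right), and most other intervals are centred close to 0.

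Within each genotype the picture was similar. In Cort+/+ BECs, limma and limma-voom called 0 of 35 members, as for all genes (0%). At an unadjusted p under 0.05, 1 member was higher (Pim1, with limma-voom too) and 0 were lower, against 4.1% and 2.53% of all genes by limma and 6.37% in either direction by limma-voom. In Cort-/- BECs both tools called 0 of 35 members (0% of all genes), and 0 members had an unadjusted p under 0.05 (limma-voom: 1, Angptl4), against 2.09% of all genes higher and 1.76% lower by limma and 4.09% in either direction by limma-voom. Stc2 did not pass the filter in the former comparison, nor Ppp1r3b in the latter. These comparisons and those between genotypes share libraries. The interaction, the difference between the responses of the genotypes, called 0 of 36 members by either tool (0% of all genes) and gave 0 at an unadjusted p under 0.05, against 0.996% of all genes higher and 0.788% lower. The interaction closest to the threshold was that of Car9, the cell surface carbonic anhydrase (0.68 on the log2 scale, 95% CI -0.07 to 1.44, unadjusted p = 0.071), at 0.914 to 1.81 RPKM. Since the interval lay within 0.5 on the log2 scale for only 12 of 36 members, a difference in response of moderate size was not detectable for most of them.

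Without both libraries low in ribosomal RNA, 5 members had an unadjusted p under 0.05 for OGD-R over both genotypes, against 9.73% of all genes, again with 0 calls (0.0136% of all genes). They were Pim1, Egln3, Ddit4 (-0.22, unadjusted p = 0.028), Ndrg1 (0.35, unadjusted p = 0.036) and Bhlhe40 (0.30, unadjusted p = 0.042). Ddit4 (REDD1, an inhibitor of mTORC1 signalling) was at 17.6 to 19.99 RPKM in Cort+/+ NX/NG and 15.3 to 18.6 RPKM in Cort+/+ OGD-R. In Cort-/- BECs it was at 17.2 and 16.1 RPKM under NX/NG. Under OGD-R it was at 13.4 RPKM in Cort-/- replicate 1 and 17.2 RPKM in replicate 3, which this fit leaves out. Ndrg1, a stress-responsive gene, and Bhlhe40, a transcriptional repressor of the circadian clock, had the lowest level of their group in each library low in ribosomal RNA. The median deviation of the 36 members from their own means was, on the log2 scale, -0.11 and -0.06 in the Cort-/- and the Cort+/+ library low in ribosomal RNA. These were the lowest of the 10 libraries, and the others lay between -0.05 and 0.07. The part of ribosomal RNA in these values was not tested.

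The second comparison asks whether the transcripts differ in the absence of cortistatin. Over both environments limma and limma-voom called 0 of 36 members, against 0.222% of all genes by limma and 1.06% by limma-voom. At an unadjusted p under 0.05, 2 members were higher in Cort-/- BECs (Bhlhe41 and Angptl4) and 1 was lower (Ppp1r3b), against 7.01% of all genes higher and 8.09% lower. Limma-voom gave 6 of 36 members at this threshold, adding Stc2, Adm and Apln, against 15.8% of all genes in either direction. Stc2 reached 1 RPKM in every Cort-/- library, but among Cort+/+ libraries only in NX/NG replicate 3. It thus passed the filter only with the Cort-/- libraries, and its values are no support for a difference. The median log2 fold change of the members was -0.01, against 0.00 for all genes, and their median size was 0.071, against 0.11 for all genes. For no member did the 4 Cort-/- libraries lie apart from the 6 Cort+/+ libraries, as they did for 1.4% (higher) and 1.56% (lower) of all genes.

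Bhlhe41 (DEC2), a repressor of the circadian clock, was at 0.982, 1.38 and 1.02 RPKM in Cort+/+ NX/NG, 1.74 and 1.64 RPKM in Cort-/- NX/NG, 0.940, 1.18 and 0.922 RPKM in Cort+/+ OGD-R and 1.21 and 1.49 RPKM in Cort-/- OGD-R. Within each environment both Cort-/- libraries were above all Cort+/+ libraries, on a base of at least 76 reads in every library. The share of all genes that split by genotype within an environment was not computed, here or for Fam162a, Arnt2 and Vegfa below. The log2 fold change was 0.47 over both environments (SE 0.14, unadjusted p = 0.0085, limma FDR = 0.18), and leaving out any 1 library gave 0.42 to 0.54 with an unadjusted p of at most 0.032. Without both libraries low in ribosomal RNA it was 0.43 (limma, unadjusted p = 0.043). Its paralog Bhlhe40 was at 8.61 to 13.9 RPKM, with a log2 fold change of -0.02 between genotypes (95% CI -0.33 to 0.29). The paralogs therefore differed in level by several fold and Bhlhe41 alone passed the unadjusted threshold, but the difference between them was not tested.

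Ppp1r3b targets protein phosphatase 1 to glycogen and so favours glycogen synthesis. It was at 1.43, 1.47 and 0.873 RPKM in Cort+/+ NX/NG, 0.871 and 0.886 RPKM in Cort-/- NX/NG, 1.42, 1.299 and 0.984 RPKM in Cort+/+ OGD-R and 0.789 and 0.884 RPKM in Cort-/- OGD-R. All 4 Cort-/- libraries lay under 0.89 RPKM, and only Cort+/+ NX/NG replicate 3 among the 6 Cort+/+ libraries fell within their range. The gene passed the filter of 1 RPKM only through Cort+/+ libraries, where it was higher, so its log2 fold change of -0.47 (SE 0.18, unadjusted p = 0.026, limma FDR = 0.26) is a description and no support for a difference. The p lay between 0.0050 and 0.065 when any 1 library was left out. The other glycogen genes gave smaller differences. Gys1 (glycogen synthase) lay between 8.98 and 11.3 RPKM and Gbe1 (branching enzyme) between 2.60 and 3.19 RPKM, with log2 fold changes of -0.07 and -0.01 between genotypes, while Ppp1r3c and Pygl (liver glycogen phosphorylase) were below the filter.

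**Figure D3:**
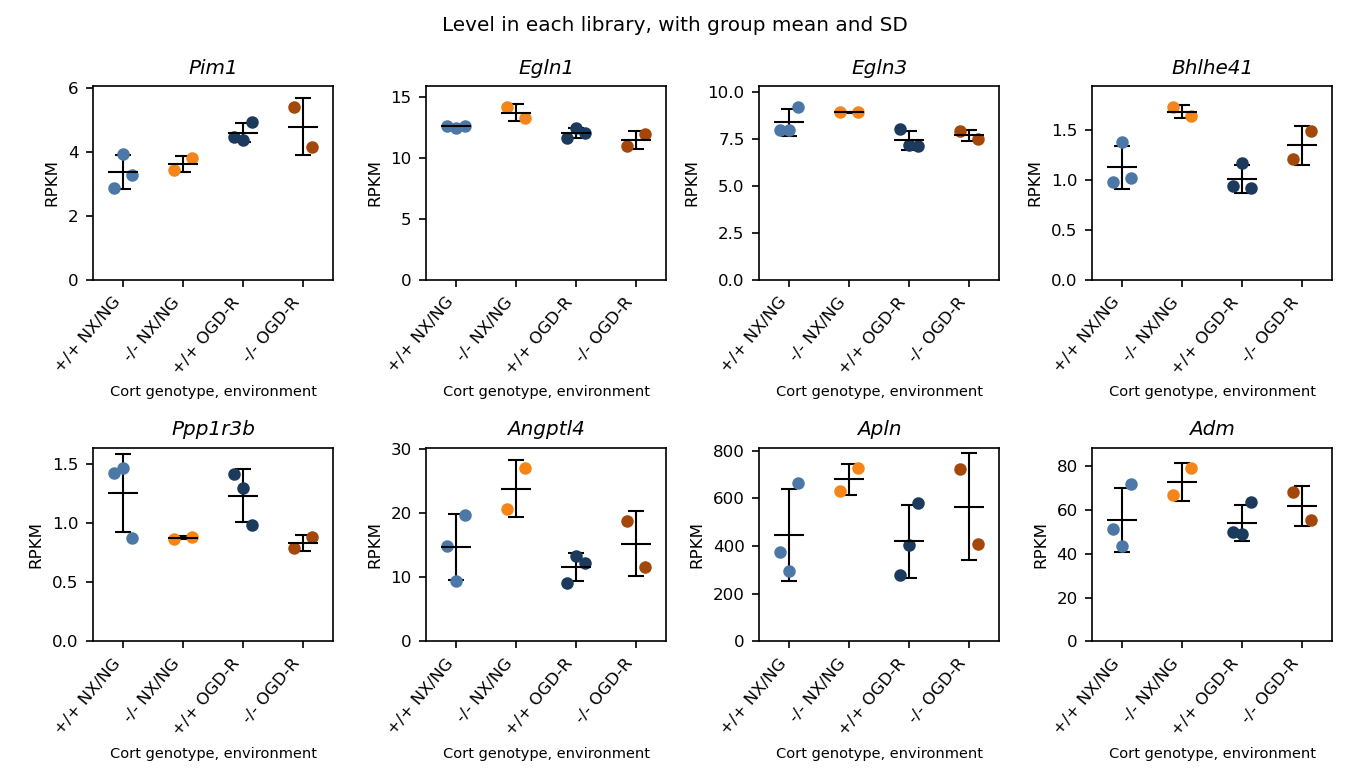
Level in RPKM (vertical axes, from 0) of 8 members in each library (points), by Cort genotype and environment (horizontal axes), with the group mean (long bar) and SD (whiskers), for 3 Cort+/+ or 2 Cort-/- libraries per group. Pim1 is above its NX/NG values in every OGD-R library, whereas Apln, Adm and Angptl4 spread as widely within groups as between them.

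The secreted members held the widest spread. Apln encodes apelin, a ligand of endothelial tip cells, and was at 375, 296 and 664 RPKM in Cort+/+ NX/NG, 632 and 726 RPKM in Cort-/- NX/NG, 277, 402 and 581 RPKM in Cort+/+ OGD-R and 723 and 407 RPKM in Cort-/- OGD-R. Replicates of 1 group thus differed by up to 2.24-fold under NX/NG. Angptl4, an inhibitor of lipoprotein lipase, was at 14.9, 9.35 and 19.7 RPKM in Cort+/+ NX/NG, 20.6 and 26.9 RPKM in Cort-/- NX/NG, 9.12, 13.3 and 12.2 RPKM in Cort+/+ OGD-R and 18.8 and 11.6 RPKM in Cort-/- OGD-R. Adm encodes adrenomedullin, a vasodilator peptide that tightens the endothelial barrier, and was at 51.1, 43.4 and 71.6 RPKM in Cort+/+ NX/NG, 66.7 and 79.0 RPKM in Cort-/- NX/NG, 50.04, 48.8 and 63.4 RPKM in Cort+/+ OGD-R and 68.1 and 55.3 RPKM in Cort-/- OGD-R. For Angptl4 and Apln both Cort-/- NX/NG libraries were high, but Cort+/+ NX/NG replicate 3 came close to or above one of them.

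The log2 fold change between genotypes over both environments was 0.56 for Angptl4 (SE 0.23, unadjusted p = 0.035, limma FDR = 0.29). It was 0.56 for Apln (95% CI -0.06 to 1.19, unadjusted p = 0.073) and 0.31 for Adm (95% CI -0.02 to 0.64, unadjusted p = 0.066). Leaving out any 1 library gave 0.41 to 0.73 for Angptl4, with p between 0.011 and 0.11. Without both libraries low in ribosomal RNA it was 0.68 for Angptl4 (unadjusted p = 0.017) and 0.65 for Apln (unadjusted p = 0.035). After OGD-R the log2 fold change of Angptl4 was -0.45 (95% CI -0.95 to 0.05), and -0.21 without those libraries. The stanniocalcins Stc1 and Stc2, secreted glycoproteins, were near 1 RPKM (0.680 to 1.63 and 0.632 to 1.67 RPKM), and Stc2 gave 0.43 between genotypes (unadjusted p = 0.099). As Stc2 passed the filter only with the Cort-/- libraries, this value is a description and no support for a difference.

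These 3 abundant secreted members varied with the summed endothelial marker transcripts over the libraries. The 8 endothelial markers summed to 911 to 1142 RPKM in Cort+/+ NX/NG, 1164 and 1300.4 RPKM in Cort-/- NX/NG, 932 to 1031 RPKM in Cort+/+ OGD-R and 1254 and 1000.2 RPKM in Cort-/- OGD-R. Cdh5 and Pecam1 led this sum, and not every marker followed it. Cort-/- OGD-R replicate 1 (sum 1254 RPKM) had Kdr at 15.8 RPKM and Emcn at 135.5 RPKM. Cort+/+ NX/NG replicate 2 (sum 930 RPKM) had Kdr at 25.6 RPKM and Emcn at 163 RPKM. Emcn was highest where the sum was highest, at 194 RPKM in Cort-/- NX/NG replicate 2. The 8 fibroblast and leptomeningeal markers summed to 198 to 285 RPKM in Cort+/+ NX/NG but 124 and 86.1 RPKM in Cort-/- NX/NG. Under OGD-R they summed to 225 to 333 and 195 to 245 RPKM. The collagen genes Col1a1, Col1a2 and Col3a1 led this sum, while Dpt, Lum and Slc6a13 were at or near 0 in every library. Pdgfra went the other way under NX/NG, at 0.498 and 0.728 RPKM in Cort-/- against 0.326 to 0.375 RPKM in Cort+/+. Dcn overlapped there, at 0.913 and 0.555 RPKM against 0.899 to 1.07 RPKM. Over the 10 libraries, Pearson's r with the endothelial sum on the log2 scale was 0.92 for Adm (Spearman's rho 0.88), 0.92 for Apln (rho 0.94) and 0.87 for Angptl4 (rho 0.73). With the permutation p adjusted over 14848 genes, these were 0.016, 0.016 and 0.028 for r and 0.049, 0.022 and 0.14 for rho, so that the rank correlation of Angptl4 missed the threshold. They were the 3 positive calls by r among 36 members, and 0 members were called negative, against 3.81% of all genes positive and 4.45% negative. Leaving out the 2 libraries farthest from the median endothelial sum gave r of 0.90, 0.90 and 0.79, and deviations from the group means gave 0.87, 0.89 and 0.81. The deviations gave values as large for members of other roles. These included Vldlr (0.91), Ak4 (0.90), Kdm3a (0.87), Hif1an (0.83), Bhlhe40 (0.81) and, with the opposite sign, Ddit4 (-0.87). In the groups of 2 libraries the deviations also mirror each other. Against the fibroblast sum, r was -0.84 for Adm (rho -0.90), -0.79 for Apln (rho -0.93) and -0.87 for Angptl4 (rho -0.86), with adjusted permutation p-values of 0.027, 0.053 and 0.020 for r. Without the 2 farthest libraries these r were -0.90, -0.94 and -0.77. There were 2 negative calls among the members (Adm and Angptl4) and 0 positive, against 2.43% and 3.17% of all genes. Vldlr, a lipoprotein receptor at 2.44 to 3.64 RPKM, gave r of 0.78 with the endothelial sum and -0.69 with the fibroblast sum, and Ppp1r3b gave -0.86 and 0.69, without passing the adjusted threshold. All genes of a library share its scaling, and 2 of the 8 endothelial markers, Tek and Flt1, are known hypoxia targets as well. Other marker sums also differed between libraries. The pericyte markers summed to 18.3 to 21.9 RPKM in Cort+/+ NX/NG but 7.81 and 10.5 RPKM in Cort-/- NX/NG. The epithelial markers summed to 59.3 RPKM in Cort+/+ NX/NG replicate 2 and 40.3 RPKM in Cort-/- OGD-R replicate 1, against 2.94 to 16.6 RPKM elsewhere. In bulk samples, fewer cells of a type and less RNA per cell cannot be told apart, and the part of cell composition in the differences between genotypes was not tested.

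**Figure D4:**
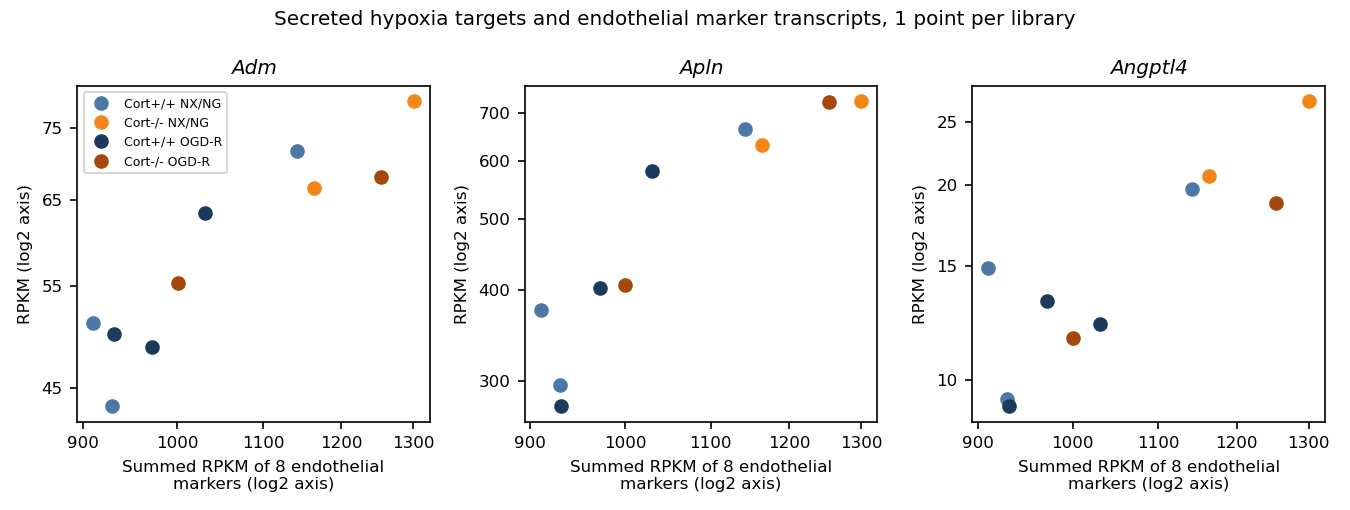
Level of Adm, Apln and Angptl4 in RPKM (vertical, log2 axis) against the summed RPKM of 8 endothelial markers (horizontal, log2 axis), 1 point per library, coloured by genotype and environment. The points rise together in all 3 panels, and the Cort+/+ NX/NG library with the highest marker sum (1142 RPKM) lies beside the Cort-/- libraries.

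The remaining members showed small differences in every comparison. Among the mitochondrial members, the mitophagy receptors Bnip3 and Bnip3l lay between 8.45 and 14.9 RPKM and between 16.6 and 24.6 RPKM, with log2 fold changes after OGD-R of -0.10 (95% CI -0.39 to 0.19) and -0.15 (-0.42 to 0.13). Higd1a, which acts on the respiratory chain, lay between 6.75 and 8.13 RPKM. Ak4, a mitochondrial adenylate kinase, lay between 2.24 and 4.10 RPKM. Fam162a, a mitochondrial protein linked to hypoxic cell death, was at 30.4, 30.3 and 31.2 RPKM in Cort+/+ NX/NG, 27.6 and 27.7 RPKM in Cort-/- NX/NG, 31.2, 39.2 and 31.1 RPKM in Cort+/+ OGD-R and 27.7 and 34.9 RPKM in Cort-/- OGD-R. Its NX/NG genotypes did not overlap, with a log2 fold change of -0.15 (SE 0.049, unadjusted p = 0.025, limma FDR = 0.33), whereas under OGD-R they did. That difference had an unadjusted p between 0.056 and 0.098 when any 1 of the 5 NX/NG libraries was left out.

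Under NX/NG alone, on the deposited RPKM, limma called 0 of 36 members between genotypes (0% of all genes), and limma-voom 0 (0.373% of all genes). At an unadjusted p under 0.05 Bhlhe41 was higher (0.55, unadjusted p = 0.046) and Fam162a lower, 1 member in each direction, against 5.42% and 7.75% of all genes, and limma-voom gave 3 (Bhlhe41, Angptl4 and Apln), against 15.7% in either direction. On the deposited RPKM, Bhlhe41 passed the filter only with the Cort-/- libraries, where it was higher, so its values in this fit are no support for a difference. Under OGD-R alone both tools called 0 of 36 members (0% of all genes by limma and 0.00698% by limma-voom). There, limma gave 0 members at an unadjusted p under 0.05 and limma-voom 2 (Stc2 and Ppp1r3b), against 1.48% of all genes higher and 2.24% lower by limma and 3.34% in either direction by limma-voom. Both genes passed the filter there only through the genotype in which they were higher (Cort-/- for Stc2, Cort+/+ for Ppp1r3b), so these values are no support for a difference. The members of the histone demethylase group, Kdm3a, Kdm4b and Kdm6b, lay between 4.04 and 7.81 RPKM and gave log2 fold changes of -0.08, -0.07 and -0.19 between genotypes. Wsb1, a substrate receptor of a ubiquitin ligase, lay between 37.6 and 57.2 RPKM, and Rora, a nuclear receptor, between 1.03 and 1.72 RPKM, with 0.05 and 0.00 between genotypes. The transcriptional regulators Cited2, which competes with HIF for its coactivators, and Mxi1, an antagonist of Myc, gave -0.06 and -0.07. Ankrd37, with 1.66 to 4.32 RPKM, had the second highest spread within groups (SD 0.48 on the log2 scale), so a log2 fold change of -0.21 after OGD-R had a 95% CI of -0.78 to 0.35.

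A list of 18 HIF partners and regulators of turnover outside the members gave a similar count. Of the 16 that passed the filter, limma and limma-voom called 0. Among all genes they called 0.0606% and 0.148% after OGD-R and 0.222% and 1.06% between genotypes. The median log2 fold change of the 16 was 0.01 after OGD-R and -0.02 between genotypes, against 0.00 for all genes in both. After OGD-R over both genotypes, Cul2, the cullin scaffold of the von Hippel-Lindau ligase, was lower at an unadjusted p under 0.05 (-0.26, unadjusted p = 0.023), against 5.38% of all genes. Between genotypes Siah2, a ubiquitin ligase for the prolyl hydroxylases, was higher (0.31, unadjusted p = 0.036) and Arnt2, the paralog of Arnt, lower (-0.43, unadjusted p = 0.025). Of all genes, 7.01% were higher and 8.09% lower at this threshold. Arnt2 was at 6.33, 6.14 and 4.70 RPKM in Cort+/+ NX/NG, 3.49 and 3.53 RPKM in Cort-/- NX/NG, 5.90, 4.78 and 4.32 RPKM in Cort+/+ OGD-R and 3.54 and 5.41 RPKM in Cort-/- OGD-R. The genotypes did not overlap under NX/NG, but did under OGD-R.

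Hypoxia targets outside the members gave differences in both directions. The list had 30 symbols for 29 genes, all of which passed the filter. Limma called 0 of them after OGD-R (0.0606% of all genes) and 0 between genotypes (0.222%) over 10 libraries. Limma-voom called Hmox1 after OGD-R (0.148% of all genes) and Vegfa and Lox between genotypes (1.06%). The median log2 fold change of the 29 was -0.02 after OGD-R and 0.02 between genotypes, against 0.00 for all genes. After OGD-R, 1 was higher (Vegfa) at an unadjusted p under 0.05, against 6.31% of all genes. At this p, 5 were lower (Hmox1, Tek, Insig2, Slc2a1 and Rsbn1), against 5.38% of all genes. Vegfa, the canonical angiogenic HIF target, was at 9.28, 10.01 and 7.25 RPKM in Cort+/+ NX/NG, 5.19 and 5.24 RPKM in Cort-/- NX/NG, 13.1, 11.4 and 9.91 RPKM in Cort+/+ OGD-R and 7.79 and 8.36 RPKM in Cort-/- OGD-R. Within each environment both Cort-/- libraries were below all Cort+/+ libraries, and the log2 fold change was -0.62 between genotypes (limma FDR = 0.071, limma-voom FDR = 0.031) and 0.47 after OGD-R (limma FDR = 0.20). Hmox1, heme oxygenase 1, had a log2 fold change of -0.53 after OGD-R (limma FDR = 0.0502, limma-voom FDR = 0.012). Between genotypes, 6 were lower at an unadjusted p under 0.05 (Vegfa, Lox, Plod2, Loxl2, P4ha1 and Pfkfb4), and those higher at this p included Hmox1, Slc2a1 and Edn1. Of all genes, 8.09% were lower and 7.01% higher at this p. The log2 fold change of Lox, a collagen cross-linking oxidase, was -0.80 (limma FDR = 0.095, limma-voom FDR = 0.038). The collagen-modifying enzymes Lox, Plod2, Loxl2 and P4ha1 were lower beside the fibroblast marker sum given above, which collagen genes led. The part of cell composition in this was not tested.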

How the data were processed

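RNA-seq of 10 libraries was used, and groups came from the labels. The authors used their own pipeline, reanalyzerGSE, so as to retain genes of low expression, and the labels list edgeR among the tools; aligner, annotation and build are not given in the sources used here. The deposited values are RPKM per gene, with the libraries of each environment normalized together and apart from the other environment. The gene length beside them, deposited by the authors, was used to recover reads: RPKM times length was within 0.05 of a whole number of reads for 99.9958% to 100% of values. A further 10 columns of per-sample values that hold expression categories were not used, nor were the authors' own comparisons (fold changes, p-values and FDR).

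The members and the lists were chosen with earlier results of these data known. Genotypes within an environment were compared on the deposited RPKM. For all other comparisons, the reads of the 27321 shared genes were rescaled together with trimmed means of M values, computed in R 4.3.3, and RPKM was computed anew. Each of the 7 comparisons was fitted with limma 3.58.1 (trended empirical Bayes) on log2(RPKM + 0.1). A gene entered where 2 or more libraries of the fit reached 1 RPKM, and p-values were adjusted by Benjamini-Hochberg over all genes tested. Fold changes on this scale understate changes of low genes. Fits over both genotypes or environments were additive. Correlations used 100000 permutations of the libraries, two-sided, for each gene against 2 marker sums. P-values measure the spread between these pooled cultures. Values in every library were given for the HIF subunits and Egln1 and Egln3, for members with an unadjusted p under 0.05 in any comparison, and for Apln, Adm, Arnt2 and Vegfa, which were added after their values were seen; the others are given by range and count. A gene in the list of other hypoxia targets is not reported here; it remains in that list's counts and median. At the depth of 12386048 to 12390428 reads, 3 reads were taken as the floor, for counting error only.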

Additional observations from a re-analysis of the deposited data

How the results depend on the processing

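The number of members called at an FDR of at most 0.05 stayed at 0 in each of 107 refits, but the number at an unadjusted p under 0.05 moved with the settings in most comparisons. For genotype under NX/NG it was 2 as reported, against 1873 of all 14220 genes tested. It was 4 with the replicate number as a block (replicate block), against 2165 of 14220 genes. The 4 were Apln, Adm, Ddit4 and Angptl4, while both reported ones missed the threshold under the block (unadjusted p = 0.146 for Bhlhe41 and 0.118 for Fam162a). For genotype under OGD-R it was 0 as reported, 1 with a pseudocount of 1, without the low filter, or with ribosomal and mitochondrial genes left out, and 2 with limma-voom or with low ribosomal RNA as a term. Of all genes, 533 of 14325 were at this p as reported. In the order of these settings, the counts were 557 of 14325, 1019 of 29775, 548 of 14538, 479 of 14325 and 818 of 14325. For OGD-R in Cort-/- BECs it was 0 as reported, 1 with limma-voom or with all groups in one fit, and 4 with the ribosomal RNA term. Over all genes, these counts were 539 of 13998, 573 of 13998, 770 of 14855 and 624 of 13998. For the interaction it was 0 as reported (265 of 14855 genes) and 1 without the low filter (780 of 27321 genes). With the ribosomal RNA term it was 5 for OGD-R over both genotypes and 5 for genotype over both environments, against 3 each as reported, and with limma-voom 6 for the latter. Of all 14855 genes, 1484 and 2742 were at this p with the term, against 1736 and 2243 as reported. With limma-voom it was 2350 of 14855 genes for the latter. Leaving out both libraries low in ribosomal RNA, an alternative chosen after seeing the data, gave 5 for OGD-R over both genotypes and 5 for genotype over both environments. Of all 14678 genes tested, 1428 and 2912 were then at this p. For genotype under OGD-R, OGD-R in Cort-/- and the interaction it left a lone Cort-/- OGD-R library, so those counts are not given. The cause was not tested.

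Leaving out 1 Cort+/+ library at a time gave 0 to 5 members for genotype under NX/NG, 0 for genotype under OGD-R, 1 to 2 for OGD-R in Cort+/+ and 0 to 2 for the interaction. The 5 came without Cort+/+ NX/NG replicate 3, where 2529 of 14013 genes were at this p. The interaction gave 2 without Cort+/+ OGD-R replicate 1, where it was 532 of 14763 genes. Leaving out any 1 of the 10 libraries gave 2 to 4 members for OGD-R over both genotypes and 1 to 8 for genotype over both environments. For OGD-R over both genotypes, between 1262 of 14776 and 2265 of 14762 genes were then at this p. In the other comparisons, leaving out a Cort-/- library left a lone library in its group, which was then assumed to vary like the other libraries. Those counts are therefore not given. For genotype over both environments, the highest were 8 without Cort-/- OGD-R replicate 3 and 7 without Cort+/+ NX/NG replicate 3. Over all genes it was then 2961 of 14786 and 2259 of 14776, against 2243 of 14855 as reported. None of the 9 log2 fold changes of members reported at an unadjusted p under 0.05 changed sign in these refits, nor did any of 21 further ones over 10 libraries (the genes named from the lists outside the members, and Ddit4, Ndrg1 and Bhlhe40 after OGD-R). Whether equal replicate numbers pair the libraries could not be decided. Deviations from the group means correlated between -0.39 and 0.13 for equal numbers, but in groups of 2 libraries they mirror each other. The replicate block called no member either. Over all genes it moved the limma calls from 33 to 7 for genotype over both environments and from 9 to 3 for OGD-R over both genotypes. The ribosomal RNA term could not be fitted for genotype under NX/NG, nor the block for OGD-R in Cort-/-.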
